A study of Mus musculus with 14 samples.

Results

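The bone marrow stroma supplies signals that hold blood stem and progenitor cells in place, and marrow adipocytes share a lineage with that stroma. Here 10 genes of these cells were followed, 4 of niche stroma (Cxcl12, Lepr, Kitl, Angpt1) and 6 of adipocytes (Adipoq, Plin1, Plin4, Cfd, Fabp4, Cidec). They were taken by symbol, and all 10 were among the 32589 genes of the tables from wild-type mice and among the 19465 genes of the tables from the C1qa cross.

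The data were Visium spatial transcriptomes of mouse hematopoietic tissues, in which each spot of an array reports the RNA of a small group of cells, read as unique molecular identifiers (UMIs). The study asked how the niches of red cell formation are built in fetal liver, marrow and spleen. C57BL/6 wild-type mice from Jackson gave 6 of the 14 sections, namely fetal livers at E13.5 and E14.5, leg bone at postnatal day 8 (P8), an adult spleen, leg bone marrow at 89 weeks and a leg bone decalcified for 5 days in 0.5 M EDTA from a mouse aged 6 months. The fetal livers and spleen of this set are called purchased below. The other 8 sections came from C1qa heterozygous intercrosses, with 2 wild-type (WT) and 2 C1qa knockout (KO) E14.5 fetal livers and 2 WT and 2 KO spleens, aged 3 months by the labels and 2 months by the study's supplement. All tissues were read with probes against mouse transcripts, and the labels give formalin as the fixative of all, while the study's methods give paraformaldehyde for the bone embedded in gelatin. The 89-week marrow had been embedded in gelatin, cryosectioned and freed from bone before it entered paraffin, while the P8 section held a whole young bone with cartilage, bone and muscle around the marrow.

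Each section was 1 library, and the level of a gene is given as CPM, the UMIs of the gene per 1000000 UMIs, summed over spots under tissue in which 1000 or more genes were detected. Without the EDTA section, 491 to 2320 spots per section passed this filter and held 4225805 to 56182915 UMIs. The EDTA section kept 15 of 814 spots and 37167 UMIs. It held 0 to 5 counts of each of the 10 genes, and 0 counts there allow a level of up to 80.7 CPM (the level of 3 counts), so this section entered no comparison. C1qa was read at 25.8 to 95.9 CPM in the WT livers and 218 to 269 CPM in the WT spleens, against 0.0595 to 0.0866 CPM in the KO livers and 0.0548 to 0.189 CPM in the KO spleens, so every KO library matched its label. In tissue, the P8 section stood apart from the 89-week section in the genes of other tissues. The 8 cartilage genes summed to 33499 CPM at P8 and 13.9 CPM at 89 weeks (Matn1, Matn3 and Cnmd at 0 counts), and the 8 skeletal muscle genes to 9305 and 17.8 CPM (Myh8 at 0 counts at 89 weeks). The 8 neutrophil genes, markers of the marrow itself, summed to 5744 CPM at P8 and 27775 CPM at 89 weeks.

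Stromal cells that express Lepr, the leptin receptor, and Cxcl12, the chemokine that retains stem cells and lymphoid progenitors through its receptor Cxcr4, surround the marrow sinusoids. The same cells are a source of Kitl, the stem cell factor that binds Kit, and of Angpt1, the ligand of the endothelial receptor Tek. Of the adipocyte genes, Adipoq encodes the hormone adiponectin, Plin1, Plin4 and Cidec coat or enlarge the lipid droplet, Cfd encodes the serum protease adipsin, and Fabp4 encodes a fatty acid carrier that capillary endothelium also makes. Adipoq is also known in the Lepr-expressing marrow stroma, which can precede fat storage.

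The positions of the genes are those of RefSeq on GRCm38.p6, the build called mm10 in the authors' processing. Cxcl12 (ENSMUSG00000061353) spans chromosome 6 from 117168535 to 117181368, and Lepr (ENSMUSG00000057722) spans chromosome 4 from 101717137 to 101815352. Kitl (ENSMUSG00000019966) spans chromosome 10 from 100015615 to 100100416, and Angpt1 (ENSMUSG00000022309) spans chromosome 15 from 42424667 to 42676977. Adipoq (ENSMUSG00000022878) lies on chromosome 16 from 23146536 to 23157968, Plin1 (ENSMUSG00000030546) on chromosome 7 from 79721164 to 79732904, and Plin4 (ENSMUSG00000002831) on chromosome 17 from 56100587 to 56109948. Cfd (ENSMUSG00000061780) lies on chromosome 10 from 79890853 to 79892655, Fabp4 (ENSMUSG00000062515) on chromosome 3 from 10204342 to 10208616, and Cidec (ENSMUSG00000030278) on chromosome 6 from 113424634 to 113435760. The counts are per gene, so no exon or untranslated region was resolved.

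Cxcl12 was read in every tissue. It stood at 275 CPM in P8 marrow and 237 CPM in 89-week marrow. The purchased spleen read 379 CPM, the WT spleens 123 and 155 CPM and the KO spleens 114 and 112 CPM. The 6 fetal livers ran from 39.5 to 65.6 CPM with a median of 43.1 CPM. All marrow and spleen sections were thus above all livers, and the order from the top was the purchased spleen, P8 marrow, 89-week marrow, the cross spleens and the livers.

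Lepr followed the same split between tissues on a lower CPM. It read 21.9 CPM at P8 and 42.4 CPM at 89 weeks, 22.2 CPM in the purchased spleen, 23.2 and 25.8 CPM in the WT spleens and 20.5 and 22.0 CPM in the KO spleens. The livers read 1.46 CPM at E13.5, 1.48 CPM at E14.5 and 3.72 to 5.35 CPM in the cross. The 89-week marrow was the highest section, and P8 marrow lay within the range of the spleens.

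Kitl varied less between tissues. It read 24.3 CPM in P8 and 17.0 CPM in 89-week marrow, 25.1 CPM in the purchased spleen, 41.7 and 35.3 CPM in the WT spleens and 29.8 and 26.0 CPM in the KO spleens. The livers read from 7.90 CPM in the purchased E14.5 section to 18.3 CPM in WT fetal liver 4. The WT spleens were the highest, and the 89-week marrow lay within the range of the livers.

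Angpt1 did not follow the tissues. It read 22.8 CPM in P8 marrow, 6.97 and 6.92 CPM in the purchased E13.5 and E14.5 livers and 6.93 CPM in the purchased spleen, but 0.237 CPM in 89-week marrow, 0.173 to 0.714 CPM in the cross livers and 0.283 to 0.710 CPM in the cross spleens. The 4 sections with the higher values were the ones whose file headers name Cell Ranger 4, and the 9 lower ones those made with Space Ranger 2.1.1 or 4.0.1. For the same tissue, the purchased E14.5 liver was at 6.92 CPM against 0.247 and 0.631 CPM in the WT cross livers. Of 8372 genes above 5 CPM in all 4 sections of the first kind, 2 were under 1 CPM in all 9 of the second kind, and Angpt1 was 1 of them. Within 1 tissue, the purchased section was thus 11.0- to 28.0-fold above the WT cross sections in E14.5 liver and 9.76- to 10.6-fold in spleen. The 2 marrow sections were of different kinds, so for Angpt1 the kind of library and the age cannot be told apart there. Other members also differed between purchased and WT cross sections of 1 tissue. Cxcl12 was 2.45- to 3.08-fold higher in the purchased spleen, but at 0.636 to 0.973 of the cross level in E14.5 liver. Adipoq was at 0.0176 to 0.0400 of the cross level in liver and 0.0307 to 0.0310 in spleen. An order of sections of both kinds is therefore not an order of tissues alone.

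Apart from Fabp4, the adipocyte genes were read above background mainly in marrow. The background was taken in each section from genes of tissues it should lack, lists chosen after seeing the data, for example hepatocyte and pancreas genes in marrow. The 90th percentile of these genes was 0.532 CPM in P8 and 0.522 CPM in 89-week marrow, 2.88 CPM in the purchased spleen, 7.61 to 15.6 CPM in the cross spleens and 5.71 to 18.9 CPM in the cross livers. A level under that percentile was not taken as evidence of expression, which does not show absence. The lists differed between tissues, so the percentile is not the same yardstick in each. In WT fetal liver 2, at 18.9 CPM, the pancreas genes of the list summed to 126 CPM, against 20.3 to 25.7 CPM in the other cross livers. Of the niche genes, Lepr lay under the percentile in all 6 livers and Angpt1 in 89-week marrow and all cross sections. Kitl lay under it in WT fetal liver 2, with 205 counts or 10.1 CPM.

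Adipoq read 15.8 CPM in P8 and 20.2 CPM in 89-week marrow, both far above that background. The purchased livers held 1 count each, and the purchased spleen 3 counts or 0.196 CPM. The cross livers read 0.445 to 3.15 CPM, the WT spleens 6.32 and 6.39 CPM and the KO spleens 4.06 and 2.74 CPM, all under the background of those sections. Adipoq thus passed the background of its own section in the marrow sections alone, where that background was lower than in the livers and spleens.

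Fabp4 was the other adipocyte gene with high counts in marrow, at 253 CPM in P8 and 307 CPM at 89 weeks. The livers read 17.2 to 41.8 CPM, the WT spleens 14.6 and 13.5 CPM, the KO spleens 7.84 and 7.18 CPM and the purchased spleen 7.78 CPM. Both marrow sections were above all others. Fabp4 also passed the background in all 6 livers and in the purchased spleen, where that background was 2.88 CPM. Of the cross spleens only WT spleen 1 passed its background of 14.4 CPM, which lay within the counting interval of its level (13.0 to 16.4 CPM).

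The remaining adipocyte genes were low. Cfd read 6.69 CPM in P8 and 9.13 CPM in 89-week marrow, Plin1 6.69 and 1.30 CPM, and Plin4 2.91 and 0.593 CPM. Cidec read 0.455 and 0.356 CPM and was under the background in both. In the purchased livers and spleen these 4 genes had 0 to 7 counts each, and 0 counts there allow up to 0.0783 CPM in the E13.5 liver. In the cross sections they ran from 0.480 to 9.08 CPM, under the background of each section.

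**Figure D1:**
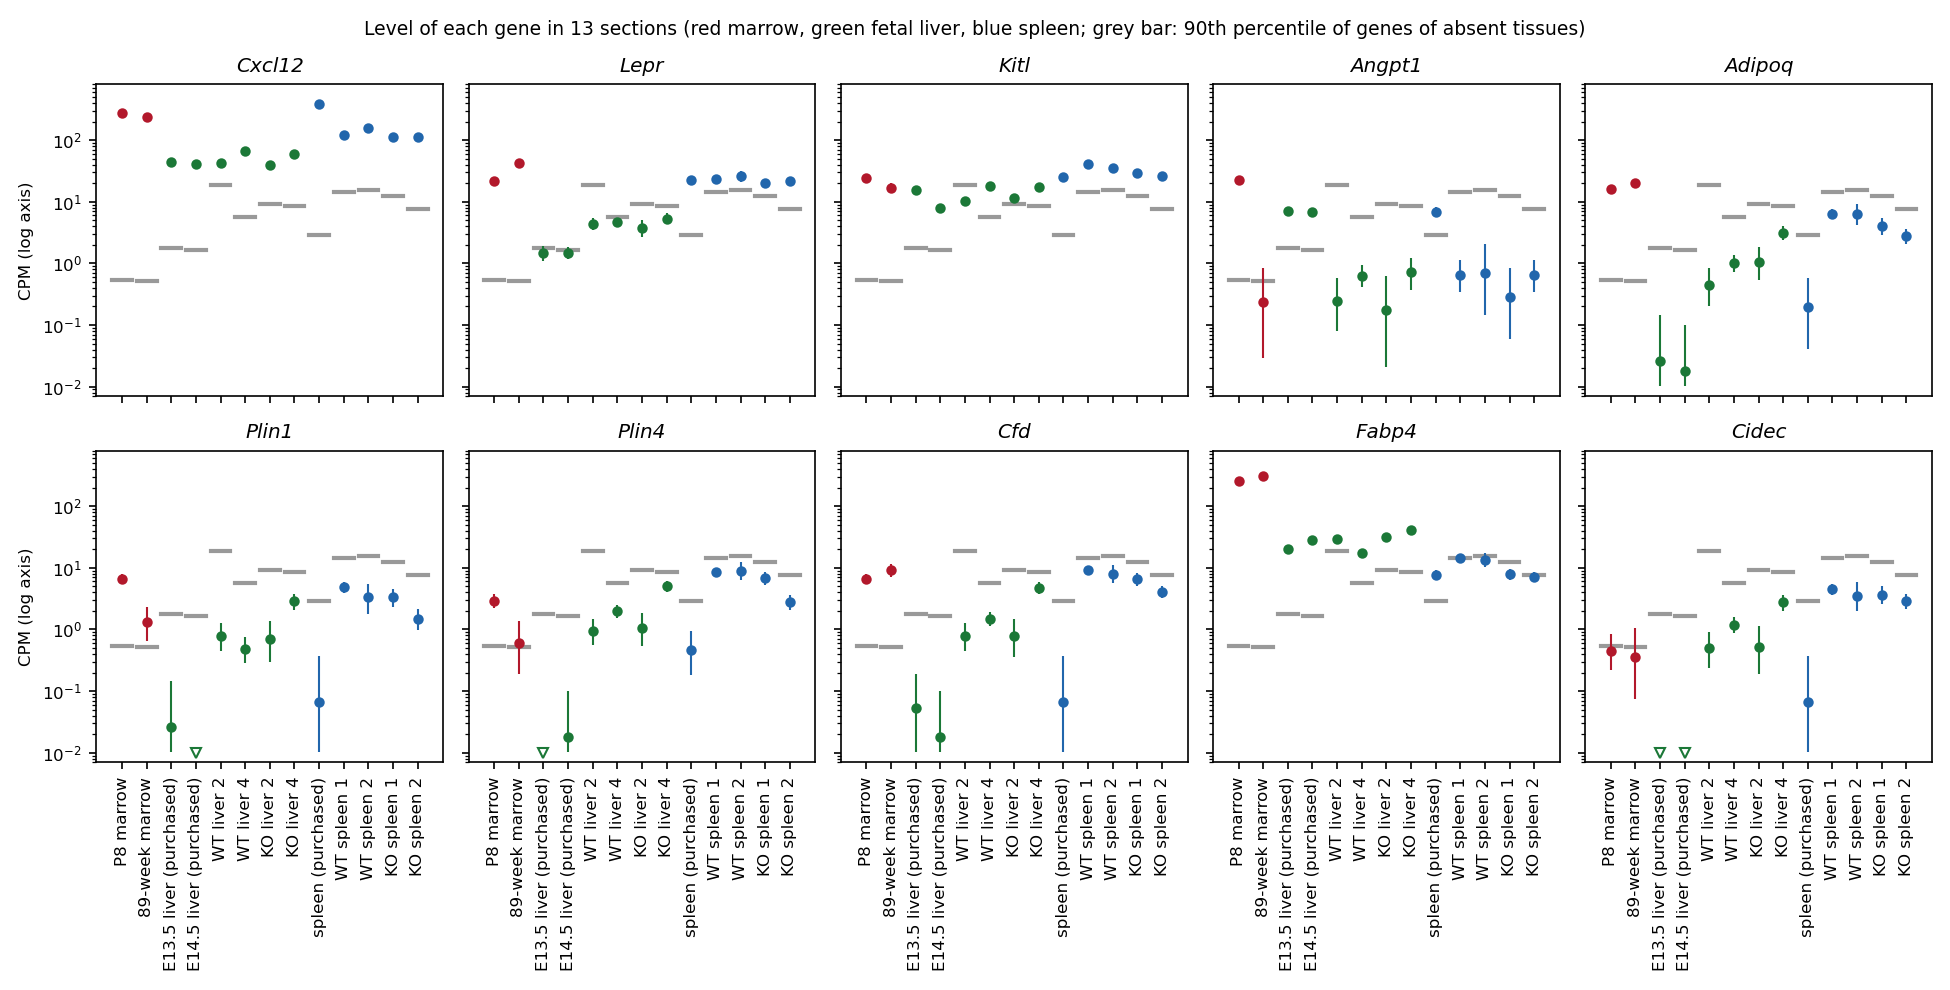
Level of each of the 10 genes in 13 sections, in CPM on a log axis, with exact 95% Poisson intervals that cover counting error only (open triangles are 0 counts, intervals are cut at the lower edge). Red points are marrow, green fetal liver and blue spleen, and the grey bars are the 90th percentile of genes of absent tissues. Cxcl12 lay above the grey bar in all 13 sections, while Adipoq did so only in the 2 marrow sections.

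Between P8 and 89-week marrow, 7 of the 10 genes differed by less than 2-fold, among them Cidec with too few counts for a direction. Lepr came closest to a rise and Angpt1, Plin1 and Plin4 were lower at 89 weeks. With 1 section per age there is no replicate, no p-value, and age, preparation, dissection and software version cannot be told apart. The intervals come from the exact binomial split of the counts and cover counting error only. Fewer cells of a type and less RNA per cell cannot be told apart in these sums.

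For the niche factors, Cxcl12 (6054 counts at P8, 2000 at 89 weeks) differed by -0.22 on the log2 scale (95% interval -0.29 to -0.14), and Kitl (535 and 143 counts) by -0.52 (-0.80 to -0.25). Lepr (482 and 358 counts) was 1.94-fold higher at 89 weeks (1.68 to 2.22), a log2 ratio of 0.95. It passed 2-fold with the mean of spot CPM (1.27), with each spot thinned to 2000 UMIs (1.36) and with globin-free library totals (1.02). Cxcl12 changed sign with the mean of spot CPM (0.06) and with thinning (0.03). Angpt1 had 500 counts at P8 and 2 at 89 weeks, a P8 level 95.9-fold higher (26.4 to 794), between sections of the different library kinds.

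For the adipocyte genes, Adipoq (348 and 170 counts) differed by 0.35 (0.07 to 0.62) and Fabp4 (5562 and 2592 counts) by 0.28 (0.21 to 0.35). Cfd (147 and 77 counts) differed by 0.45 (0.03 to 0.86), or -0.30 after thinning. The lipid droplet genes went lower. Plin1 had 147 counts at P8 and 11 at 89 weeks, a P8 level 5.13-fold higher (2.78 to 10.5). Plin4 had 64 and 5 counts, a P8 level 4.91-fold higher (2.00 to 15.6). Cidec had 10 and 3 counts, and its 89-week level was 0.782 of that at P8 (0.138 to 3.04).

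Of the 10 genes, 0 were at least 2-fold higher at 89 weeks and 3 at least 2-fold lower. Among the 14955 genes with at least 10 counts in the 2 sections, 16.1% were at least 2-fold higher and 31.4% at least 2-fold lower. The share of lower members was thus near that of all genes. The median log2 ratio was -0.29 over the 10 genes and -0.25 over all genes tested.

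In spots with a share of neutrophil genes Plin1 stayed lower at 89 weeks, while Plin4 came within 2-fold. Most of these spots at P8 also held muscle, cartilage or osteoblast genes, and without such spots too few Plin1 counts remained to resolve a difference. Among spots with at least 0.5% of their UMIs from the neutrophil genes, 303 at P8 and 931 at 89 weeks, Plin1 read 5.20 and 1.30 CPM (log2 ratio -1.995) and Plin4 0.975 and 0.593 CPM (-0.72). There Adipoq read 20.3 and 20.2 CPM (-0.01), Cxcl12 369 and 237 CPM (-0.64) and Lepr 26.4 and 42.3 CPM (0.68). When spots with muscle, cartilage or osteoblast genes were also left out, an alternative chosen after seeing the data, 33 spots remained at P8. Plin1 then read 1.31 CPM at both ages, from 2 counts at P8, and Cfd 2.61 and 9.17 CPM, from 4 counts at P8.

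**Figure D2:**
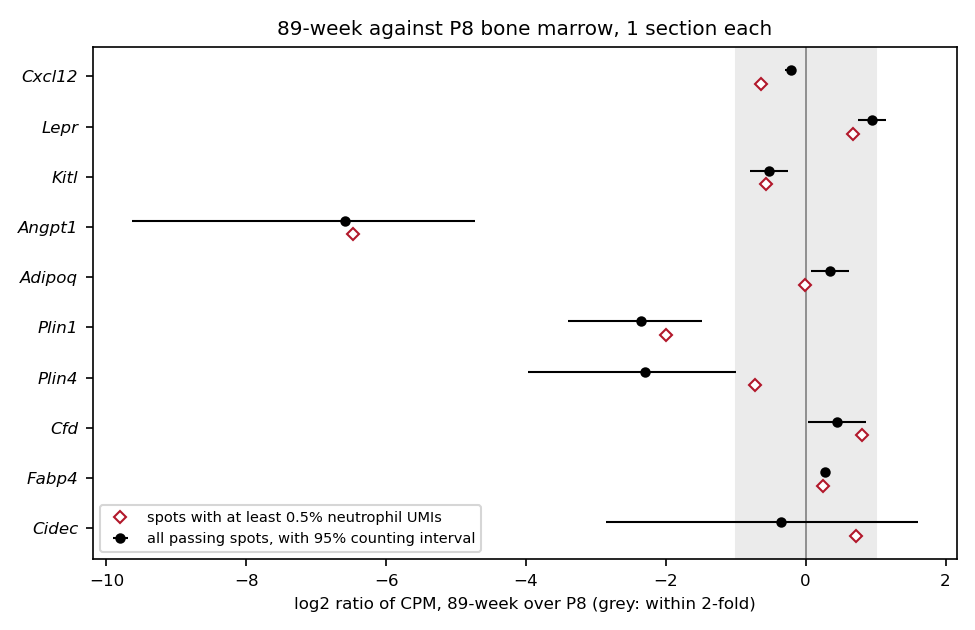
Log2 ratio of CPM, 89-week over P8 marrow, for the 10 genes, 1 section per age. Black points are all passing spots with the 95% counting interval, red diamonds spots with at least 0.5% neutrophil UMIs, and the grey band marks ratios within 2-fold. Angpt1, Plin1 and Plin4 lay outside the band over all spots, and Plin4 moved from -2.30 to -0.72 in neutrophil-share spots.

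Of the other genes of niche stroma most were at least 2-fold lower at 89 weeks, while most other adipocyte genes were within 2-fold. The lists below were chosen with earlier results of these data known. Of 12 other genes of niche stroma, 1 was at least 2-fold higher at 89 weeks (Il7, a lymphoid growth factor, 1.16, named after its value was seen) and 7 lower, with a median log2 ratio of -1.71. The largest ratios were those of Nes (-4.93), an intermediate filament of perivascular cells, Prrx1 (-3.62), a limb mesenchyme factor, Pdgfra (-3.49), Bmp4 (-3.04) and Foxc1 (-2.61), a factor of Cxcl12-rich stroma. Prrx1, Pdgfra and Nes are also expressed in young bone, cartilage or muscle, and the ratios in neutrophil-share spots were -2.95, -2.99 and -3.75. Of those 303 spots at P8 only 33 were free of muscle, cartilage and osteoblast spots. These ratios therefore do not set marrow apart from those tissues.

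Of the receptors and partners of these factors, 8 of 9 had enough counts. Cxcr4, the Cxcl12 receptor, was higher at 89 weeks, at 78.2 and 206 CPM (1.40) beside the higher neutrophil genes, and was at 0.62 in neutrophil-share spots. Lower by at least 2-fold were Ackr3, the scavenging receptor of Cxcl12 (1187 counts and 1), Cdh13, an adiponectin-binding cadherin (675 and 1), Angpt2 (-1.79), the partner of Angpt1, and Tek (-1.40), their receptor. As for Angpt1, the kind of library and the age cannot be told apart for these genes. Kit, the Kitl receptor, was within 2-fold at 0.95.

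Of 18 other adipocyte genes, 15 had enough counts, 1 was higher and 4 lower, with a median of 0.05. Scd1, a fatty acid desaturase, was higher (1.42). Car3 (-5.29) and Slc2a4 (-1.26), both also of muscle, and Lpl (-1.15), lipoprotein lipase, were lower, as was Cidea, with 19 counts and 0, named after its values were seen. Cebpa (0.84), an adipocyte and myeloid factor, was within 2-fold.

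Within the P8 section, Cxcl12 and Lepr were low in muscle spots, where Plin1 and Plin4 were high. The 108 passing spots richest in each marker list were compared with each other. Cxcl12 read 390 CPM in the neutrophil spots, 271 in the endothelial spots, 222 in the osteoblast spots, 119 in the muscle spots and 39.4 in the cartilage spots. Lepr read 30.2, 30.2, 18.3, 6.76 and 3.58 CPM in the same order of classes. Both genes were highest where marrow or vessel genes were rich.

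Of the droplet genes, Plin1 read 24.8 CPM in muscle spots, 24.4 CPM in endothelial spots and 23.7 CPM in the spots richest in other adipocyte genes, against 3.35 CPM in neutrophil spots and 0 counts in cartilage spots. Plin4 read 25.3, 10.3 and 19.8 CPM in the same 3 classes and 0.258 CPM, 1 count, in neutrophil spots, and muscle spots held 70.3% of its UMIs. Cidec had 0 to 3 counts in each class. Cfd read 32.1 and 4.38 CPM and Fabp4 755 and 246 CPM in muscle and neutrophil spots. The muscle class shared 79 of its 108 spots with the class richest in other adipocyte genes and 38 with the endothelial class, so muscle, fat and vessels were not separated by this division.

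Adipoq belonged to both places, at 26.5 CPM in muscle spots and 20.4 CPM in neutrophil spots, and at 2.86 CPM in cartilage spots. Kitl was near even across classes, at 22.4 to 31.4 CPM, except 4.30 CPM in cartilage. Angpt1 was highest in cartilage spots, at 35.1 CPM, and lowest in muscle spots, at 13.0 CPM. The classes are parts of 1 section, so these are descriptions without a test.

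**Figure D3:**
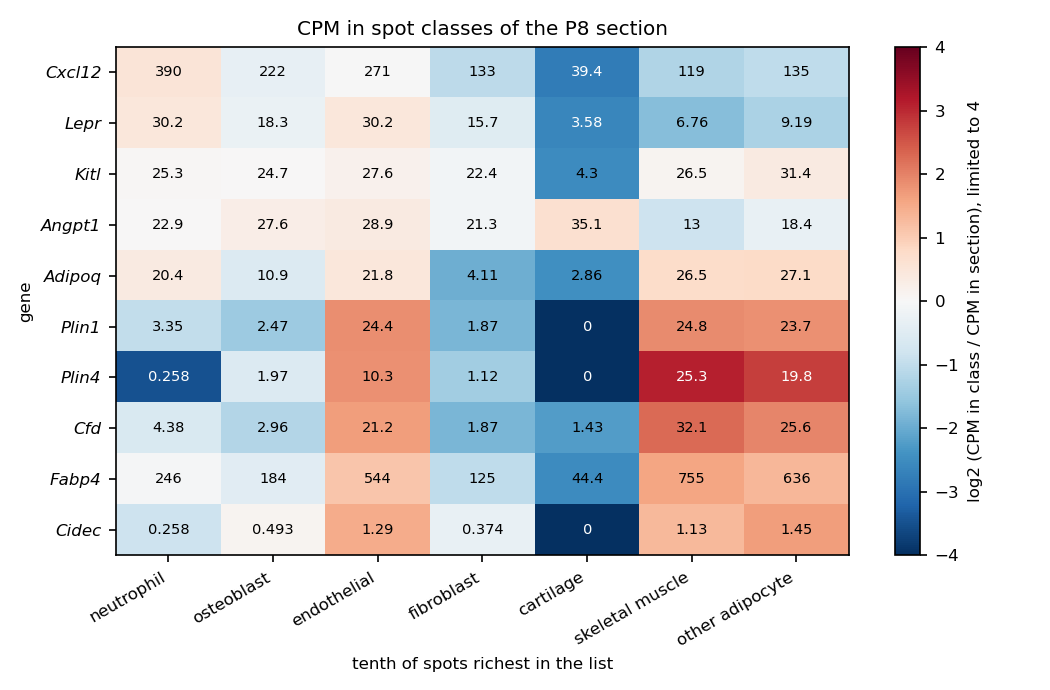
CPM of the 10 genes (rows) in the 108 P8 spots richest in each marker list (columns), with the color giving log2 of the class level over the section level, limited to 4 in either direction. Plin4 read 25.3 CPM in muscle spots and 0.258 CPM in neutrophil spots, while Cxcl12 read 119 and 390 CPM.

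At 89 weeks the classes of 93 spots differed less, but they included erythroid spots and no muscle or cartilage class. The spread is therefore not like for like with that at P8, and the spots were also less deep. Off-tissue spots held 49.9% of all UMIs at 89 weeks and 32.2% at P8. The part of such signal in the class levels was not tested. Cxcl12 ran from 207 CPM in erythroid spots to 297 CPM in fibroblast spots, and Lepr from 27.4 CPM in erythroid spots to 61.0 CPM in endothelial spots. Adipoq was highest in the spots richest in other adipocyte genes, at 31.8 CPM, and lowest in osteoblast spots, at 16.9 CPM. Cfd read 23.5 CPM, from 17 counts, in the adipocyte-rich spots and 4.38 to 11.6 CPM in the other classes. Fabp4 was highest in endothelial spots, at 421 CPM.

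The spread over spots differed between the genes. Cxcl12 was found in 75.4% of P8 and 80.6% of 89-week spots, and after thinning to 2000 UMIs in 33.2% and 36.7%. Lepr was found in 29.6% and 31.1% of spots, thinned 3.43% and 8.92%, and Adipoq in 20.4% and 16.0%, thinned 2.59% and 4.30%. The thinned shares for Lepr and Adipoq were therefore higher at 89 weeks, as for their CPM. Plin1 was found in 9.49% of P8 and 1.07% of 89-week spots.

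At P8 the richest spots held a larger share of the UMIs of Plin1, Cfd and Adipoq than of Fabp4 and Cxcl12. The richest 5% of spots held 67.3% of Plin1 UMIs, 78.2% of Cfd UMIs and 47.1% of Adipoq UMIs, against 25.3% of Fabp4 UMIs and 26.7% of Cxcl12 UMIs. A gene with few counts lies in few spots, which raises this share. Plin1 and Cfd had 147 counts each, in 103 and 87 spots, and Fabp4 had 5562 counts in 843 spots. The genes were not compared at equal counts, so these shares alone do not show a difference in concentration. A single spot held 29 Cfd UMIs, or 19.7% of the gene's total in the section. Of the 6 neighbors of a P8 spot with Adipoq, 43.7% also held Adipoq, against 20.9% for all spots, and for Lepr 51.3% against 30.6%. At 89 weeks the Adipoq shares were 18.9% and 15.4%, and the part of depth and off-tissue signal in these shares was not tested.

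Across the 1085 P8 spots, which share a library and differ in depth, the highest correlations between members were Plin1 with Cidec (Pearson r 0.417), Cfd with Cidec (0.406) and Plin1 with Cfd (0.370). Cxcl12 and Lepr correlated at 0.218 and Adipoq and Cxcl12 at 0.0935. Across the 932 spots at 89 weeks the highest was Plin1 with Cfd (0.211), with Plin1 at 11 counts. Such values in sparse counts are descriptions.

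Among 9927 genes with at least 200 counts at P8, the pattern most like that of Cxcl12 across spots was Hist1h3i (r 0.572), followed by Hist1h2bl, Hist1h3h, Car2 and Hist1h4m, which are 4 histone genes and a carbonic anhydrase. The pattern most like Adipoq was Mgst1 (0.237), followed by Lpl, Abca8a, Grina and Ints5. At 89 weeks the closest to Cxcl12 among 5582 genes were Mgp (0.171), S100a9, Col6a1, Serping1 and Scara3, and the closest to Adipoq were Cdk10 (0.159), Prelp, Ugdh, Tmem176a and Chd8. The values at 89 weeks were low and single out no gene.

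**Figure D4:**
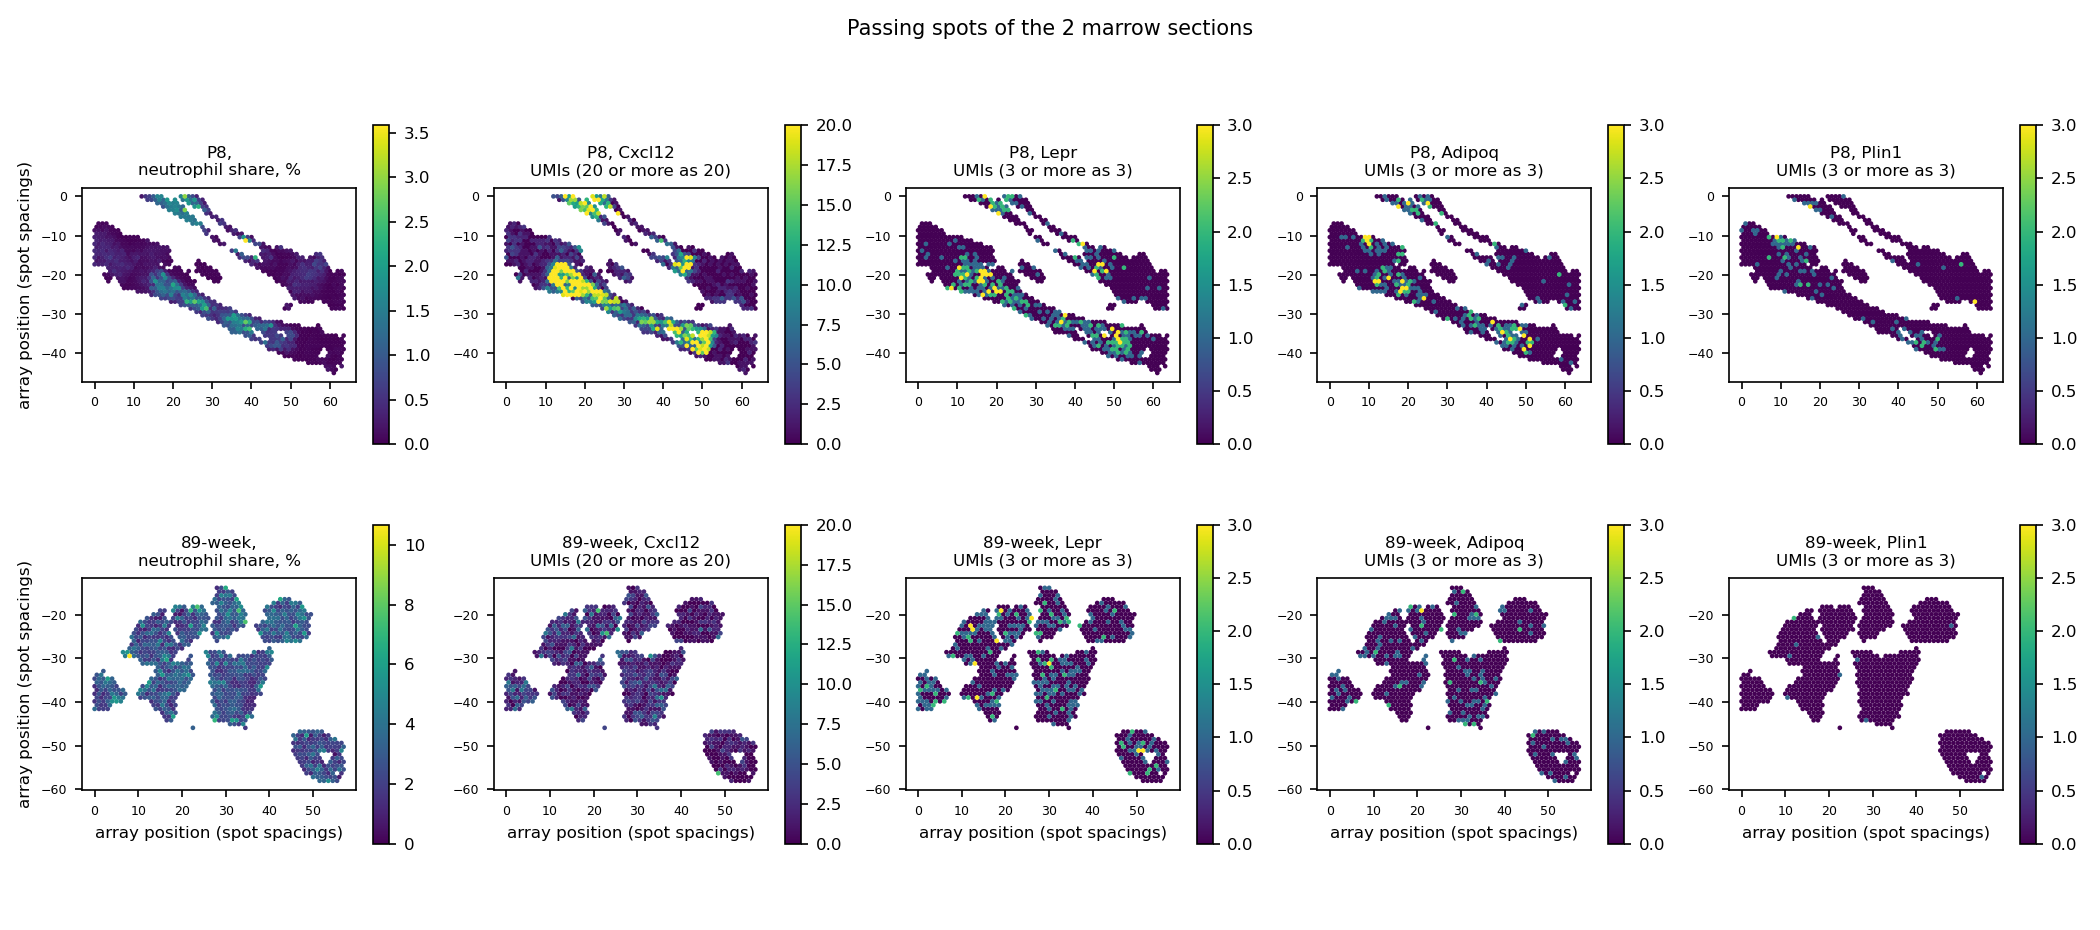
Passing spots of the P8 section (top) and 89-week section (bottom) by array position in spot spacings, colored by the neutrophil share of UMIs in percent or by the UMIs of a gene, not scaled for depth (median 16659 UMIs per passing spot at P8 and 8513 at 89 weeks). In CPM, the 108 P8 spots richest in neutrophil genes read 390 for Cxcl12 and 30.2 for Lepr, against 251 and 20.2 in the other spots. Plin1 had 147 UMIs at P8 and 11 at 89 weeks.

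To compare the other niches, the 4 spleens and 4 fetal livers of the C1qa cross were tested as sums per section. Relative to fetal liver, the spleens had higher Lepr, Adipoq, Cfd, Cidec and Cxcl12 and lower Fabp4. Tissue and age cannot be told apart, since the livers were fetal and the spleens adult. The liver sections also differed in content. Their hepatocyte genes summed to 96080 CPM in WT fetal liver 2 and 6542 CPM in WT fetal liver 4, and their fibroblast genes to 740 and 4339 CPM. Here edgeR's quasi-likelihood test was used with TMM scaling (a scaling to the bulk of genes) and Benjamini-Hochberg adjusted p under 0.05, so the differences are not those of the CPM above. The TMM factors were 0.544 to 1.20 in livers and 1.11 to 1.40 in spleens, so genes higher in spleen differ by less than in CPM and genes lower in spleen by more.

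Of the 10 members, 6 passed, 5 higher and 1 lower in spleen, against 53.3% of 19180 genes, 26.7% higher and 26.6% lower. Lepr rose by 1.61 (SE 0.27, adjusted p 0.00253), Cfd by 1.35 (0.37, 0.0181), Adipoq by 1.30 (0.30, 0.00918), Cidec by 1.06 (0.37, 0.0413) and Cxcl12 by 0.58 (0.19, 0.0334). Fabp4 fell by 2.29 (0.36, 0.00198). The values for Plin4 (1.03, adjusted p 0.0512), Kitl (0.52, 0.0544), Plin1 (0.91, 0.137) and Angpt1 (-0.21, 0.751) did not pass.

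The liver levels of Lepr were under the background of genes of absent tissues. The rise of Adipoq, Cfd and Cidec stood under that background in the spleens, where 3 of 8 cartilage genes and 2 of 6 tested osteoblast genes also rose. Its part in the rise was not tested. Under upper-quartile scaling, which moved the median difference of all genes from 0.10 to 0.50, 8 members passed and the split of all calls was 6604 higher and 3485 lower, against 5119 and 5097. Cxcl12 did not pass with DESeq2 or when any 1 of 6 sections was left out (both number 4 livers and the 4 spleens, 0.49 to 0.73), and Cidec when any spleen or WT liver was left out (0.98 to 1.20). Cfd did not pass without WT spleen 1, WT spleen 2 or KO spleen 1 (1.38, 1.40 and 1.22), and Adipoq without KO spleen 1 (1.20). Fabp4 did not pass in WT sections alone (-1.82). With only liver spots of at least 0.5% hepatocyte UMIs, 6 of 9 members tested passed, 5 higher and 1 lower, against 11357 of 19104 genes.

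Of 12 other niche stromal genes 3 rose and 2 fell, for example Csf1 (1.66), a macrophage growth factor, and Nes (-1.84). Of the 9 receptors and partners 2 rose and 4 fell, with Cxcr4 higher by 2.01 and Adipor2, an adiponectin receptor, lower by -2.01. Of 18 other adipocyte genes 5 rose and 6 fell, with Lipe (1.72), the hormone-sensitive lipase, higher and Fasn (-2.14), fatty acid synthase, lower.

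Within spleen, the niche genes were higher where lymphoid genes were lower. In each cross spleen the spots were ranked by lymphoid share, and the 430 to 548 poorest were set against as many richest, with section as a block. Cxcl12 read 171 and 68.7 CPM in poor and rich spots of WT spleen 1, 196 and 122 in WT spleen 2, 152 and 79.0 in KO spleen 1, and 134 and 74.5 in KO spleen 2. All 4 spleens moved the same way. Markers of other cells also fell in the rich spots, with 8 of 8 neutrophil, 6 of 6 erythroid, 5 of 6 macrophage and 4 of 6 fibroblast genes lower, and their part in these differences was not tested.

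Of 9 members tested, 4 were lower in rich spots and 0 higher, against 10.7% of 18468 genes called, 4.59% higher and 6.09% lower. Cxcl12 fell by 1.12 (SE 0.13, adjusted p 7.39e-04), Fabp4 by 1.05 (0.18, 0.00677), Kitl by 0.51 (0.12, 0.0268) and Lepr by 0.45 (0.13, 0.0492). The Adipoq difference was 0.07 (0.24), and Angpt1 was not tested for low counts. The Lepr call was lost with DESeq2, with a median split in place of these classes and when any 1 spleen was left out (-0.39 to -0.49). The Kitl call was lost with DESeq2 and without WT spleen 1, WT spleen 2 or KO spleen 2 (-0.37, -0.52 and -0.55), and without the block only Cxcl12 passed. Of the other genes, Vcam1 (-0.96), an adhesion molecule of stroma and macrophages, Pdgfrb (-0.91), Adipor1 (-0.79), Kit (-0.59), Pparg (-1.43) and Slc2a4 (-1.41) fell, and Scd1 (1.31) rose.

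The purchased spleen, not in that test, read Cxcl12 at 607 and 223 CPM, Kitl at 32.2 and 19.1 CPM, Lepr at 27.1 and 16.2 CPM and Fabp4 at 11.7 and 3.85 CPM in poor and rich spots. It moved in the same direction for each of these genes. Angpt1, read only in this spleen above background, was at 13.6 and 3.68 CPM.

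**Figure D5:**
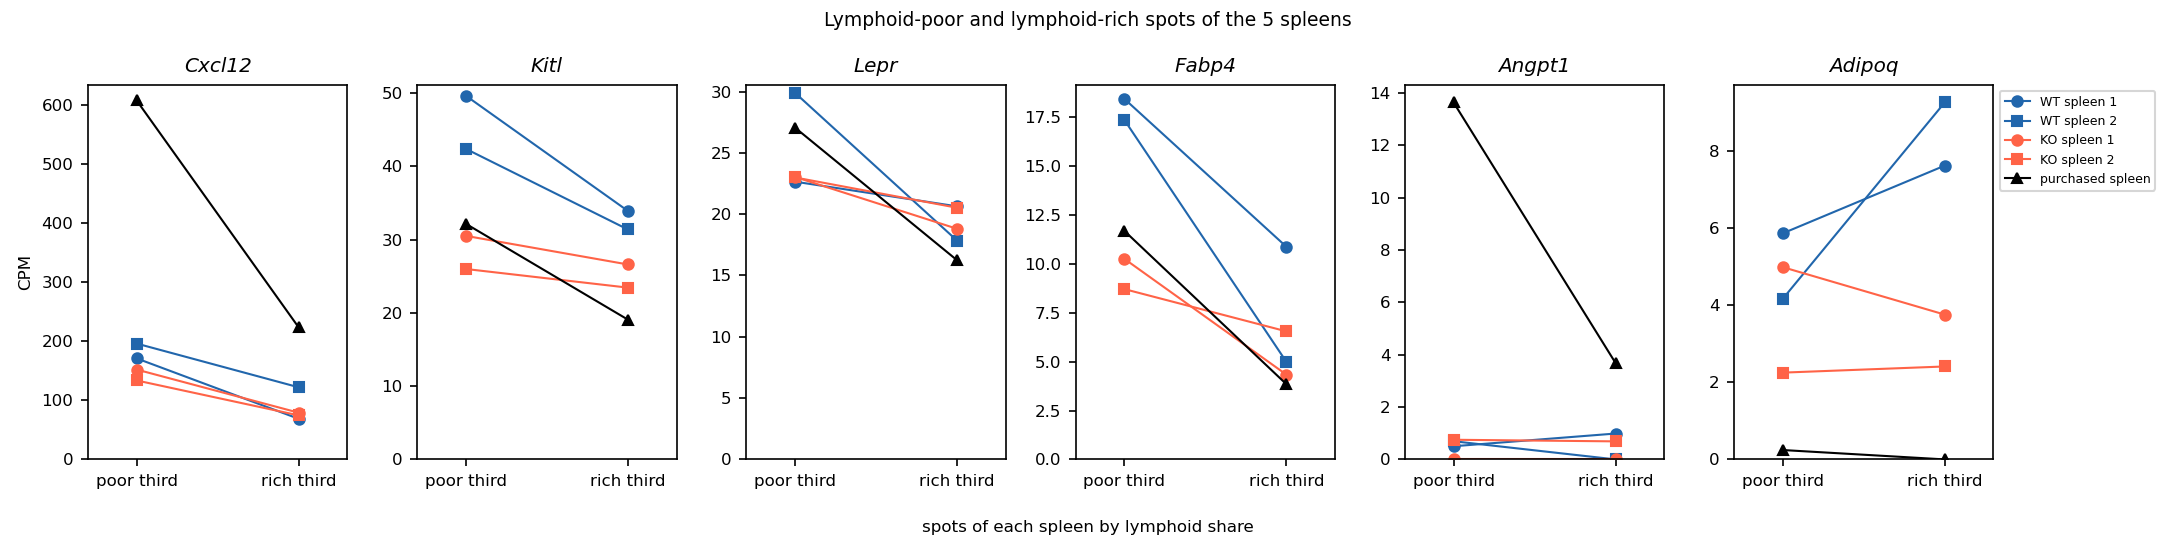
CPM of 6 genes in the lymphoid-poor and lymphoid-rich spots of each spleen, joined by a line (blue WT, red KO, black triangles the purchased spleen). Cxcl12 was lower in the rich spots in all 5 spleens, while Adipoq was not.

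Spots of the fetal liver sections were divided by hepatocyte genes, at least 0.5% of UMIs against less. This left 3.45% and 5.60% of spots as poor in the number 2 sections and 37.9% and 70.6% in the number 4 sections. The cartilage genes summed to 693 CPM in WT 4 and 84.3 CPM in KO 4, against 15.1 CPM in WT 2 and 21.6 CPM in KO 2. Poor spots may thus hold tissue other than liver, and its part in their levels was not tested. Of the 10 members 0 passed, against 30.9% of 19142 genes. Cxcl12 read 43.2 CPM in rich and 33.3 CPM in poor spots of WT fetal liver 2, 31.5 and 89.6 in WT 4, 38.4 and 75.4 in KO 2, and 38.4 and 112 in KO 4. Its difference was -0.31 (SE 0.35, adjusted p 0.545), and without WT fetal liver 2 it was -0.91 and passed, as did Angpt1 (-1.71, against -1.32 with all 4 livers). Fabp4 read 176 CPM in the poor spots of WT fetal liver 2 and 23.3 CPM in its rich spots, but 11.8 and 24.9 CPM in WT 4. Of 12 other stromal genes 8 were lower and 1 higher in hepatocyte-rich spots, for example Pdgfra (-2.77) and Bmp4 (-2.77) lower. Also lower were 4 of 6 fibroblast, 3 of 8 skeletal muscle, 3 of 8 cartilage and 3 of 6 endothelial genes, while all 8 neutrophil and all 6 erythroid genes were higher, and their part in these differences was not tested. Of other adipocyte genes, 5 were higher and 0 lower of 18, among them Acsl1 (2.49) and Dgat2 (2.43), which liver also uses.

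No member passed the test between C1qa KO and WT, where C1qa is the A chain of complement C1q. In fetal liver 0 of 10 members passed, against 0.0% of 18986 genes (0 of them by edgeR, where 138 had an unadjusted p under 0.05, and 7 by DESeq2). Differences, KO minus WT, ran from -0.34 (Cxcl12, SE 0.41) to 1.24 (Adipoq, SE 0.71), with adjusted p 1.00 for each. With the litter as a replicate block 157 genes and 0 members passed, and 1174 genes had an unadjusted p under 0.05 by edgeR. The differences and SEs above come from the fit without that block, where the spread between litters stayed in the error.

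In spleen 0 of 9 members passed against 20.6% of 18895 genes, 2603 higher and 1283 lower in KO (1197 and 4400 with upper-quartile factors, which moved the median difference of all genes from -0.08 to -0.37, and 2269 and 375 with DESeq2). Cxcl12 read 123 and 155 CPM in WT and 114 and 112 CPM in KO, and its difference was -0.03 (SE 0.16, adjusted p 0.898). The Lepr difference was 0.07 (0.19, 0.782) and the Kitl difference -0.22 (0.17, 0.325), which passed with upper-quartile factors alone (-0.52). Fabp4 read 14.6 and 13.5 CPM in WT and 7.84 and 7.18 CPM in KO, a difference of -0.66 (0.24, 0.0561). It passed with upper-quartile factors, with all in-tissue spots, without pancreas spots and with interior spots. Adipoq (-0.67, adjusted p 0.126) and Plin4 (-0.68, 0.137) did not pass, except Plin4 with upper-quartile factors (-0.95) and without KO spleen 1 (-1.33).

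In the same libraries all 8 neutrophil genes and 4 of 6 erythroid genes were lower in KO, and all 6 pancreas genes were higher. The neutrophil genes summed to 662 and 593 CPM in WT and 73.5 and 131 CPM in KO, and the pancreas genes to 42.7 and 776 CPM in WT and 3335 and 23101 CPM in KO. Without pancreas spots the Fabp4 difference was -0.73, and the part of the neutrophil and erythroid genes in it was not tested. Without KO spleen 2, 240 genes passed in place of 3886.

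Of the other stromal genes, Vcam1 (0.64) was higher in KO spleen, and Pdgfrb (-0.77), Nes (-0.84), Csf1 (-0.61) and Foxc1 (-0.86) were lower, of 12 tested. Of 9 receptors and partners, Cxcr4 (0.85) and Adipor2 (0.58) were higher and Angpt2 (-0.82) lower. Of 18 other adipocyte genes, Slc2a4 (-1.96) and Ucp1 (-1.09) were lower and 0 higher.

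The difference between tissues in the knockout effect was tested for each member on 4 groups of 2, without the litter as a block. Same-numbered livers shared a litter, so the spread between litters stayed in the error of this test. Of 10 members 0 passed against 0.0% of 19180 genes (0 of them by edgeR, where 2018 had an unadjusted p under 0.05, and 8 by DESeq2). Adipoq had the largest difference, -1.89 (SE 0.59, adjusted p 0.454), with KO above WT in liver (1.04 and 3.15 CPM against 0.445 and 1.01) and below WT in spleen (4.06 and 2.74 CPM against 6.32 and 6.39), all under the background of their sections.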

How the data were processed

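The authors read fixed mouse sections with the Visium probe assay, aligned them to mm10 and counted UMIs with Space Ranger, and the deposited tables hold raw counts per gene and spot. The file headers name Cell Ranger 4 for 4 tables and Space Ranger 2.1.1, 3.1.2 or 4.0.1 for the others. Here spots under tissue in which 1000 or more genes were detected, the study's filter, were summed per section. Doublet calling does not apply to spots, and no spot was taken as a replicate. The passing spots of the P8 and 89-week sections shared 231 barcodes.

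For marrow, CPM ratios were given with exact 95% intervals. The cross was tested with edgeR 4.0.16 (R 4.3.3), quasi-likelihood F test, TMM factors, filterByExpr and Benjamini-Hochberg adjustment over all genes tested, threshold 0.05, after tests on simulated data. Genotype was the only term within a tissue, the 8 sections entered as 4 groups of 2 between tissues, and section was a block for spot classes. DESeq2 1.42.0 was an alternative, with other scalings, filters, spot sets and single sections left out. Python 3.11 was used for sums. Numbered sections were taken as separate animals, per the labels, and intervals cover counting error only.

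The 10 members and all lists were chosen with earlier results of these data known. Of each list, at most 5 genes were named, by largest ratio in marrow (at least 50 counts) or smallest adjusted p. The study's supplement names the fetal livers by the pregnant mouse they came from, so liver numbers mark litters. Same-numbered livers deviated together (r 0.867 over 10661 genes), and 2 pairs were available. Correlations used log2(counts per 6000 + 1) per spot. Gene positions and symbols are those of RefSeq, and all 10 matched. The EDTA section was left out of comparisons.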

Additional observations from a re-analysis of the deposited data

Results flagged for a closer look

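Spots outside the tissue, which no comparison used, also held UMIs of the 10 genes. They summed to 2341 in the purchased E14.5 liver, 6322 in the P8 section, 3747 in the purchased spleen, 5747 in the 89-week section, 1433 in the purchased E13.5 liver and 15 in the EDTA section. These are signals in data outside the main measurement, above the limit that a count of 0 allows. Off-tissue spots held 32.2% of all P8 UMIs and 49.9% of all 89-week UMIs. The median per spot was 6688 at P8 and 5555 at 89 weeks next to the tissue and 300 and 1194 at 10 or more spacings from it, against 16546 and 8503 in tissue. Off tissue, Cxcl12 read 242 CPM at P8 and 274 CPM at 89 weeks and Adipoq 16.6 and 24.4 CPM, near the levels in tissue. The part of this signal in the levels of in-tissue spots was not tested.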

How the results depend on the processing

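The tests gave 611 member and list differences under alternatives, of which 499 kept direction and side of the threshold, 81 lost the call, 16 gained one and 15 changed sign, and of 221 marrow ratios 165 stayed within their counting interval and 7 took the other sign. The cause of each change was not tested.

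Of these 7, 1 was a ratio over 2-fold, Plin1, at 0.0029 in neutrophil-share spots without muscle, cartilage and osteoblast spots, chosen after seeing the data. The Plin1 counts at P8 were too few there to resolve a ratio. The others were Adipoq there (-0.0013) and in neutrophil-share spots (-0.0074), Cidec in neutrophil-share spots (0.72), Cfd after thinning (-0.30) and Cxcl12 after thinning (0.03) and with the mean of spot CPM (0.06). In the tests, signs also changed for Lepr in the tissue difference of the knockout effect (-0.20 with upper-quartile factors), Cxcl12 in KO spleen (0.013 with DESeq2), Lepr in KO spleen (-0.22 with upper-quartile factors) and Angpt1 in spleen against liver (0.15 with upper-quartile factors).

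Without single sections, signs changed for Lepr in the tissue difference (-0.0652 to 0.66), for Cxcl12 and Fabp4 in hepatocyte spots (-0.91 to 0.017 and -0.73 to 0.51), for Cxcl12 and Lepr in KO spleen (-0.20 to 0.13 and -0.087 to 0.19), for Adipoq in lymphoid spots (-0.076 to 0.20) and for Angpt1 in spleen against liver (-0.64 to 0.14).

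Counts of genes called moved by over 1.5 times as follows. In KO liver 7 passed with DESeq2, 1 with hepatocyte-share spots, 157 with the replicate block and 0 to 109 without single sections. In the tissue difference 8 passed with DESeq2 and 0 to 2 without single sections. In KO spleen 240 to 4972 passed without single sections, and members passing were 3 with upper-quartile factors, 1 with all in-tissue spots, 1 without pancreas spots, 1 with interior spots and 0 to 1 without single sections. In spleen against liver 5589 to 12043 genes and 2 to 7 members passed without single sections. In hepatocyte spots 3653 to 6317 genes and 0 to 2 members did. In lymphoid spots 1306 genes and 2 members passed with DESeq2, 191 genes and 1 member without the section block, and 786 to 2395 genes and 2 to 3 members without single sections. In spleen the numbers share only a number (r 0.0114), and the replicate block gave 4968 genes and 0 members.

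Depth limits Plin4, Cidec and Angpt1 at 89 weeks, with 5, 3 and 2 counts. A left-out section leaves 1 sample in its group, which is then assumed to vary like the others.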
